A study of Mus musculus with 28 samples.

Results

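Interferon-stimulated genes were followed in pituitary RNA of male and female mice after paradoxical sleep deprivation (PSD), restraint stress, or both. They are 34 of the 32594 genes of the count table, chosen by name as a list of genes that interferons are known to induce. The choice was made with earlier results of these data known. Interferons are cytokines released by cells that sense viral or misplaced nucleic acid. Type I and type III interferons signal through the kinases Jak1 and Tyk2 to a complex that holds Stat2 and Irf9 and binds the interferon-stimulated response element (ISRE) in promoters. Most tissues, endocrine glands included, transcribe these genes at a low basal level without infection.

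All 28 mice were C57BL/6J, 8 weeks old on arrival, and every group was habituated to the deprivation tank before the experiment. Home cage control mice (4 females, 4 males) had no further procedure. Restraint mice (4 females, 2 males) spent 20 min in a restrainer, PSD mice (4 females, 3 males) were kept for 12 h on small platforms over water, which interrupts rapid-eye-movement sleep, and PSD + restraint mice (4 females, 3 males) had both. Glands were taken 18 h after the end of PSD and 10 min after the end of restraint. Cage mates shared a tank and the labels do not tie mice to cages, so a tank and a treatment cannot be told apart. The mice are numbered within their group. Laboratory strains of this origin carry defective Mx1 and Mx2 genes, so counts of these genes stand for transcript and not for a working protein.

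Total counts per mouse lay between 14024465 and 52948531, with a median of 33389717. The gland's hormone genes (Gh, Prl, Pomc, Lhb, Fshb, Tshb and Cga) took between 243000 and 365000 CPM in every mouse. CPM are counts scaled to the normalized library size. Marker lists of several mice stood apart from the rest of their group, and 3 of these mice were left out together in an added fit. Male control mouse 1 had 396 CPM over 7 neurointermediate lobe genes where the other male controls had at least 1370 CPM. Female PSD mouse 1 had 244 CPM over 9 forebrain genes where female controls had at most 65.3 CPM. Male PSD + restraint mouse 2 had 100 CPM over 7 granulocyte genes where the other mice of its group had at most 10 CPM. In others, female PSD + restraint mouse 4 had 11.5 CPM of granulocyte markers (at most 2.67 CPM in its group) and 124 CPM of forebrain markers (at most 78.8 CPM). Male PSD mouse 1 had 466 CPM over 4 red blood cell genes (1430 and 1740 CPM in its group) and 1.46 CPM of granulocyte markers (12.9 and 15.5 CPM). Male PSD + restraint mouse 3 had the least red blood cell transcript of all mice, below the 1110 and 2360 CPM of its group. Some results that rest on these mice are given with and without them, and others only with them. In whole glands, fewer cells of a type and less RNA per cell cannot be told apart.

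Promoters are shown because the ISRE is the sequence through which most of these genes answer to type I interferon. The RefSeq promoter table (build GRCm38.p6, 250 bases before to 50 bases after each start) held 26 of the 34 genes. The core searched was GAAA, any 2 bases, GAAA, on both strands, with overlapping matches counted. It was found for 14 of the 26 genes (53.8%), against 3.99% of all 27025 genes of the table. Isg15, which encodes a ubiquitin-like modifier, had 3 overlapping cores 78, 72 and 66 bases before its start. Ifit1, which encodes a protein that binds viral RNA, had 2 cores on the opposite strand, 104 and 85 bases before the start. B2m, the light chain of MHC class I, had 1 core 139 bases before the start. Irf7, the transcription factor that amplifies type I interferon, had none of these letters in its window. These 4 windows are printed 5′ to 3′ in the direction of the gene, with the cores in capitals.
Isg15, minus strand, chr4:156200769-156201068: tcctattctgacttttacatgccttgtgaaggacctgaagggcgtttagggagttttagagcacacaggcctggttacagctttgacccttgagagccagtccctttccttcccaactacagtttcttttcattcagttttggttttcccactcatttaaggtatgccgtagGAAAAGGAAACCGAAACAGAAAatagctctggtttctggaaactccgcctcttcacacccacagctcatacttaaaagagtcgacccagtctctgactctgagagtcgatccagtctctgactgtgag
Ifit1, plus strand, chr19:34640639-34640938: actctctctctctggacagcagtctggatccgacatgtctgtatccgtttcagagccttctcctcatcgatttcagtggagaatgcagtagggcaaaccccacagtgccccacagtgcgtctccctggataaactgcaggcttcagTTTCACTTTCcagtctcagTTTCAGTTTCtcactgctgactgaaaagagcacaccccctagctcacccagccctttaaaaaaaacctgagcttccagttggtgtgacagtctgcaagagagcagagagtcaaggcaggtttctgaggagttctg
B2m, plus strand, chr2:122147437-122147736: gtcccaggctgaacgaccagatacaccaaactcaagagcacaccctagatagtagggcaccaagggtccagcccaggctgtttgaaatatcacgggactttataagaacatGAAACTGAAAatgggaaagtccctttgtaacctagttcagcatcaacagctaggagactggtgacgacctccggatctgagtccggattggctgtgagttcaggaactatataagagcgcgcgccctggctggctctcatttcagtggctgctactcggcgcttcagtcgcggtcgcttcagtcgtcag
Irf7, minus strand, chr7:141266375-141266674: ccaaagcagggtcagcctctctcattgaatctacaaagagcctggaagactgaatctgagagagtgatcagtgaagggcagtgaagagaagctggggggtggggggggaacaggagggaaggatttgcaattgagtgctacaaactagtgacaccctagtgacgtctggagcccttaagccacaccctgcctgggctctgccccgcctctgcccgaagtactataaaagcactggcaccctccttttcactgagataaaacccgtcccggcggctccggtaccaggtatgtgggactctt
A match is a description of the letters, not a bound site. The other genes with a core were Ifit3, Oas1a, Bst2 and Gbp3 with 2 each, and Stat2, Rsad2, Gbp2, Ddx58, Ifih1, Cxcl10 and Oas3 with 1 each. Mx1, Mx2, Usp18, Dhx58, Oas2, Parp14, Parp9 and Rtp4 had no entry.

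Over all 28 mice, control and treated, the pituitary transcribed nearly all of these genes. Levels between genes are compared as TPM, in which counts are divided by transcript length before scaling. Mean TPM over the 28 mice was at least 1 for 32 of the 34 genes and at least 10 for 14 of them. B2m stood far above the rest with a mean of 394 TPM (250 to 687 over the mice). Oasl2, a member of the oligoadenylate synthetase family, followed with 48.9 TPM (37.2 to 59.9). Bst2, the tetherin that holds virions at the cell surface, had 24 TPM (18.6 to 33.1). Stat2 and Irf9 carry the signal to the ISRE and had 21.8 TPM (17.5 to 27.5) and 21.7 TPM (18.1 to 26.6), which did not differ beyond their spread. Exons of Rnf31 overlap Irf9 on the same strand, and the effect of this overlap on the Irf9 counts was not tested. Oas3 and Mx1 were lowest with 0.378 and 0.68 TPM.

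**Figure D1:**
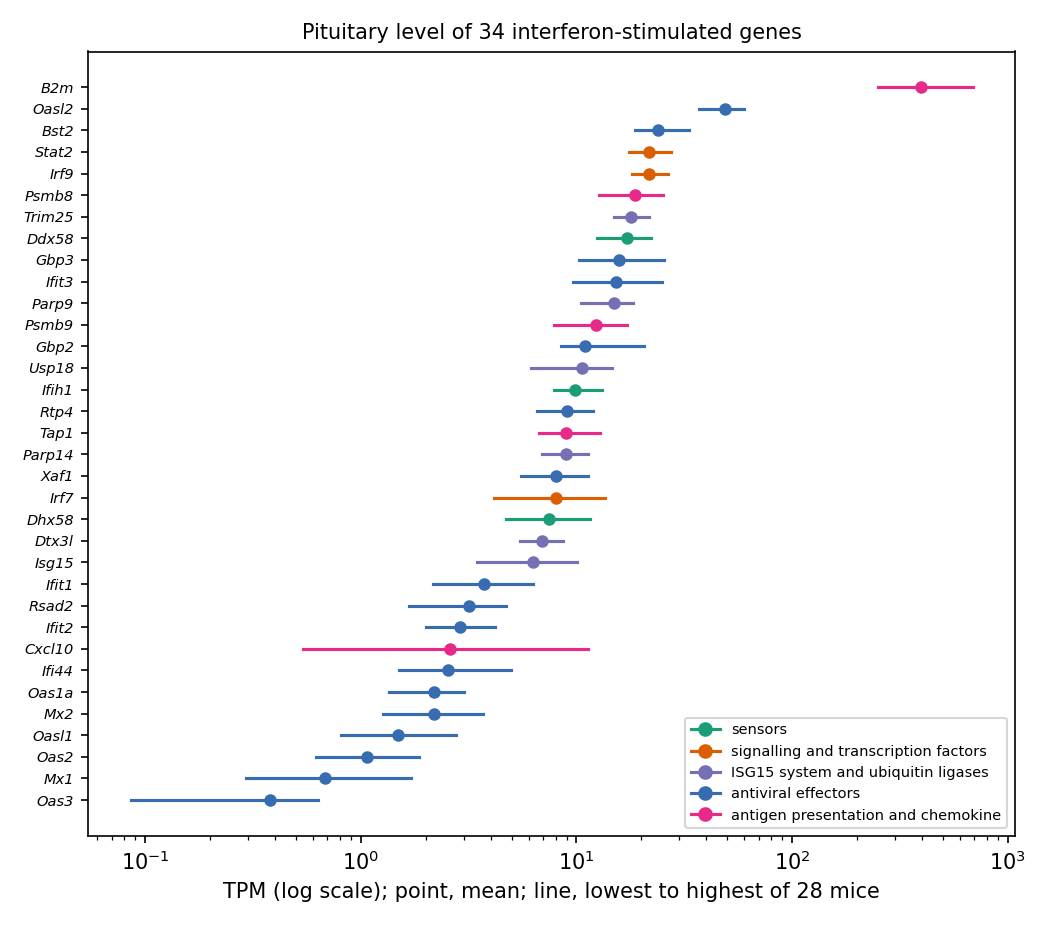
Level of each interferon-stimulated gene in TPM on a log axis, with the mean (point) and the lowest to highest of 28 mice (line), coloured by role. B2m lies at 394 TPM, and the antiviral effectors reach from 48.9 TPM (Oasl2) to 0.378 TPM (Oas3).

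Within groups, the mice did not all sit at one level. Cxcl10, a chemokine that draws T cells, varied most, from 0.497 to 10.8 CPM, with a within-group SD of 1.04 on the log2 CPM scale. Stat2 varied least, with an SD of 0.08. Many members were high or low in the same mouse. Female control mouse 4 was the highest of its group in 20 of the 34 genes, and female restraint mouse 1 was the lowest of its group in 26. Male control mouse 1 was the highest of its group in 23 genes, and male PSD mouse 3 was the lowest in 26. Ifit1, for example, had 5.21, 5.84, 5.53 and 10.6 CPM in the female controls. The mean log2 CPM over the 34 genes was 3.12 ± 0.22 (SD, n = 4) in female controls and 3.21 ± 0.14 (SD, n = 4) in male controls. In the treated groups it lay between 3.12 (female PSD) and 3.38 (male PSD), and the within-group SD over all mice was 0.19.

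**Figure D2:**
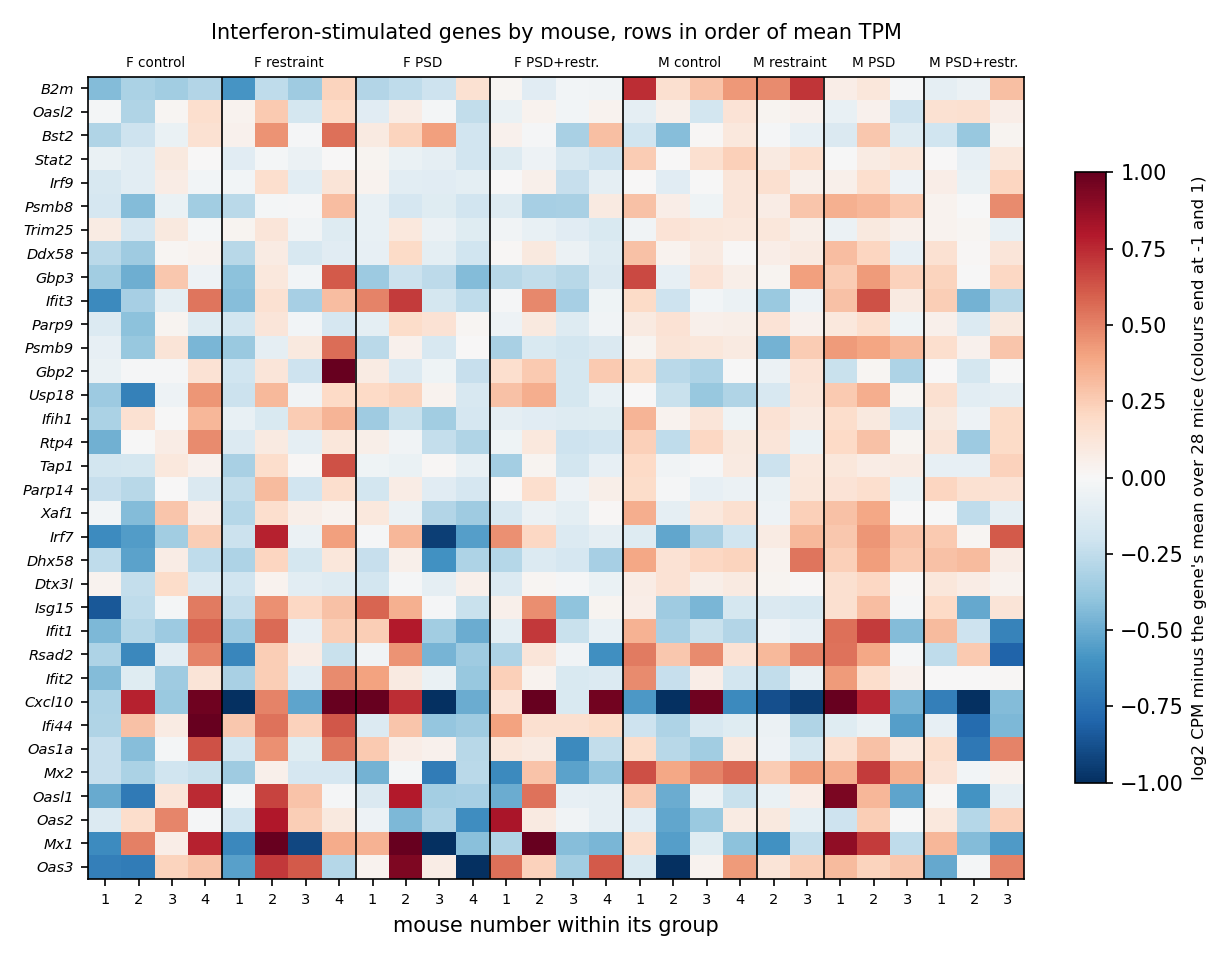
Log2 CPM of each gene minus its mean over 28 mice, for every mouse (columns, by group) with genes in order of mean TPM. A column of 1 colour marks a mouse in which many members were high or low together, and the group means of log2 CPM over the 34 genes lie between 3.12 and 3.38.

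The interferons themselves were close to absent from the counts. Of 20 interferon ligand genes in the table, 11 had 0 counts in every mouse, which allows up to 0.0567 CPM in the deepest and 0.214 CPM in the shallowest library (3 counts, counting error only). All ligand genes together had 313 counts over the 28 mice, of which Ifnz, a gene of the interferon zeta cluster, had 275. Ifng, which encodes interferon gamma, had 19 counts in 10 mice. Ifnz alone passed the filter on low counts and was called in none of the comparisons. Its lowest adjusted p (0.0834) was for PSD against control over all mice, where its log2 fold change was 1.06.

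Treatment effects were tested with edgeR's quasi-likelihood test. Called genes had to meet 2 limits, an adjusted p (Benjamini-Hochberg, over all genes tested) no higher than 0.05 and a log2 fold change no smaller in size than 0.32. All 34 members passed the filter on low counts in each fit. Over the 6 comparisons of a treated group with the controls of its sex, 1 of 204 member values was called, and 17 had an unadjusted p under 0.05, spread over 13 genes. In the same comparisons, between 0.00547% and 2.56% of all genes were called, and between 5.07% and 20.2% had an unadjusted p under 0.05. The members' share at that p, over the 6 comparisons together, lay within this range. Among single comparisons, only in PSD males was it above that of all genes (6 of 34 members against 8.85%). The 3 treated groups of a sex share their controls. DESeq2 called Irf7 in males after PSD and after PSD + restraint, and 0 members in the 4 other comparisons.

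**Figure D3:**
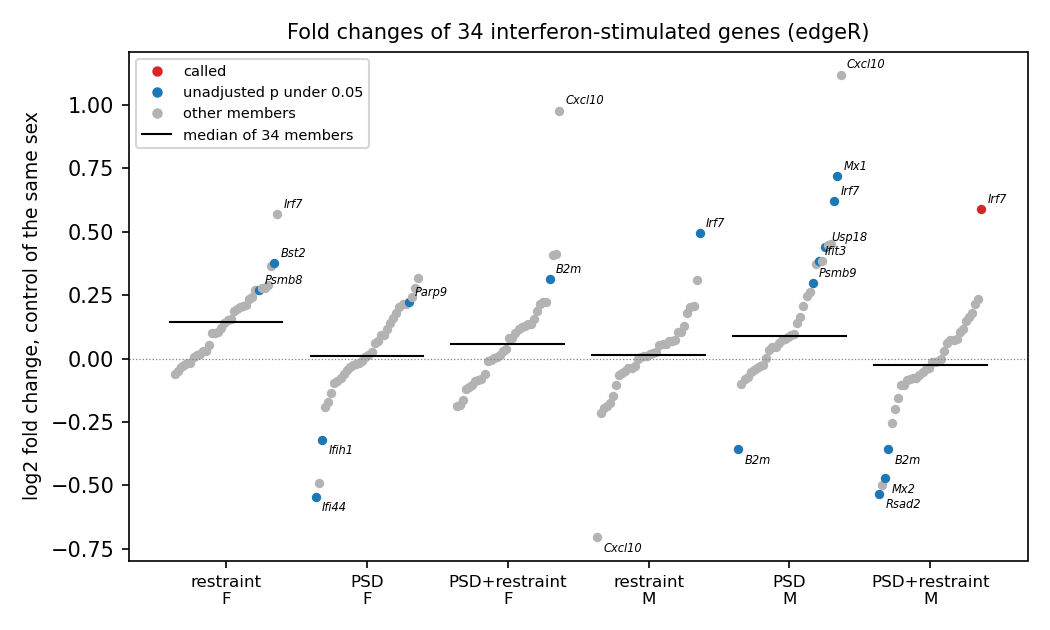
Log2 fold change of each of the 34 genes against control mice of the same sex, in order of size within each comparison. The bar is the median of the 34 genes. Irf7 in PSD + restraint males, at 0.59, is the one point called.

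In females, restraint gave mostly small positive fold changes, none of which passed the test. They were positive for 28 of the 34 genes, with a median log2 fold change of 0.15 against 0.01 over all genes tested. None of the 34 was called, where 0.543% of all genes were, and 2 had an unadjusted p under 0.05, where 9.77% of all genes had. These were Bst2, at 8.67, 9.27, 10.2 and 11.9 CPM in controls and 10.6 to 15.7 CPM after restraint (log2 fold change 0.38, SE 0.16, adjusted p = 0.461), and Psmb8, an immunoproteasome subunit (0.27, SE 0.12, adjusted p = 0.485). No member had groups without overlap, against 5.93% of all genes. The difference in mean log2 CPM, from 3.12 to 3.25 ± 0.26 (SD, n = 4), was within the spread between mice. In 54 further interferon-stimulated genes fixed as a second list, 45 had positive fold changes and none was called. H2-D1, an MHC class I heavy chain, had the lowest p (adjusted p = 0.152). Of these 54, 10 had an unadjusted p under 0.05, all of them higher, where 9.77% of all genes had. Groups did not overlap for 4 higher and 1 lower, against 5.93% of all genes. Macrophage markers summed to 168 to 181 CPM in controls and 177 to 228 CPM after restraint, with 12 of 15 positive, a median of 0.20 and none called. Endothelial markers were positive in 9 of 10, with sums of 228 to 245 CPM and 234 to 255 CPM. Their part in the members' values was not tested.

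PSD alone left the members of females spread around 0. The median log2 fold change was 0.01, with 18 positive and 16 negative, and the median of all genes was also 0.01. No member was called (0.0277% of all genes), and 3 had an unadjusted p under 0.05 (19.8% of all genes). Ifih1, which encodes the RNA sensor MDA5, had 17.7, 24.5, 22.0 and 27.7 CPM in controls and 17.2, 18.9, 17.3 and 19.6 CPM after PSD (log2 fold change -0.32, SE 0.13, adjusted p = 0.191). Ifi44, an interferon-induced cytoplasmic protein, stood at -0.54 on the log2 scale (adjusted p = 0.245), and its control group held mouse 4 at 8.18 CPM, above all other mice of the study. Without that mouse the value was -0.17 (adjusted p = 0.725). Parp9, a partner of the ubiquitin ligase Dtx3l, stood at 0.22 (adjusted p = 0.215). B2m was the 1 member whose groups did not overlap (8.61% of all genes), at 182 to 201 CPM in controls and 201 to 274 CPM after PSD (log2 fold change 0.21, adjusted p = 0.377). Without PSD mouse 4 it was 0.10 (adjusted p = 0.681). Macrophage markers were positive in 15 of 15, with none called and sums of 175 to 242 CPM after PSD (168 to 181 CPM in controls). PSD mouse 4, the highest in B2m (274 CPM), had the lowest sum of its group (175 CPM). The highest sum was in PSD mouse 1, the mouse with forebrain transcript, and the others had at most 195 CPM. Neurointermediate lobe markers were positive in 7 of 7, with none called and sums of 1750 to 4270 CPM after PSD (1220 to 1850 CPM in controls). The part of these 2 marker lists in the B2m values was not tested.

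After PSD + restraint in females, the member with the lowest p was B2m. B2m had 182, 198, 194 and 201 CPM in controls and 249, 228, 242 and 240 CPM after PSD + restraint. All 4 treated females were above all 4 controls, and the log2 fold change of 0.31 (SE 0.13, adjusted p = 0.196) was not called. Without mouse 4 it was 0.30 (adjusted p = 0.299). No member was called (2.2% of all genes), B2m alone had an unadjusted p under 0.05 (20.2% of all genes), and B2m alone had groups that did not overlap (14.4% of all genes). The median of the members was 0.06, with 22 positive. Beside B2m, the summed level of 15 macrophage markers was 168 to 181 CPM in female controls and 198 to 232 CPM after PSD + restraint, again without overlap. Among these markers Cd68 (log2 fold change 0.57, adjusted p = 0.0059) and the complement gene C1qa (0.46, adjusted p = 0.0476) were called. Neurointermediate lobe markers were positive in 7 of 7, with none called and sums of 1820 to 2910 CPM after PSD + restraint (1220 to 1850 CPM in controls). The part of these 2 marker lists in the B2m values was not tested. In the second list 1 gene was called, Tor3a (0.46, adjusted p = 0.0484).

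In males, Irf7 had the lowest p of the list in each comparison with control. It had 7.09, 5.4, 6.18 and 6.75 CPM in the control males, mice 1 to 4. After restraint it had 8.19 and 9.67 CPM, after PSD 9.31, 10.5 and 9.41 CPM, and after PSD + restraint 9.26, 7.82 and 11.8 CPM. All 8 treated males were above all 4 control males, which the comparisons share. The share of all genes with this separation was not computed. Taken singly, the comparisons had groups without overlap for 13.2% of all genes (restraint), 10.4% (PSD) and 15.1% (PSD + restraint). The log2 fold change of Irf7 was 0.49 (SE 0.16, adjusted p = 0.515) for restraint and 0.62 (SE 0.14, adjusted p = 0.181) for PSD. For the combination it was 0.59 (SE 0.14, adjusted p = 0.0432), and Irf7 was called as higher.

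That call was close to its threshold. With each male left out in turn, it was lost without control mouse 2, 3 or 4, without restraint mouse 3, without PSD mouse 1, 2 or 3, and without PSD + restraint mouse 1 or 3, with adjusted p between 0.052 and 0.124. It held without PSD + restraint mouse 2, the mouse with granulocyte transcript (0.72, adjusted p = 0.0435). The fold change stayed between 0.43, without PSD + restraint mouse 3, and 0.72. A fit with only the groups compared gave an adjusted p of 0.0987. DESeq2 called Irf7 after PSD in males as well (adjusted p = 0.00964). Without male control mouse 1, female PSD mouse 1 and male PSD + restraint mouse 2, the value after PSD + restraint was 0.77 (adjusted p = 0.0255). Irf7 lies at chr7:141262706-141266481 on the minus strand (GRCm38, GENCODE M21), and exons of Phrf1 overlap it on the other strand. The libraries were stranded, but the strand setting of the counting is not given in the sources used here. Phrf1 had log2 fold changes of -0.06, -0.14 and 0.02 in the same 3 comparisons of males.

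Irf7 in females was more scattered. Controls had 4.99, 5.25, 6.07 and 9.18 CPM, restraint mice 6.67, 13.2, 7.43 and 10.3 CPM, PSD mice 7.69, 9.72, 4.03 and 5.27 CPM, and PSD + restraint mice 10.6, 8.92, 7.04 and 7.27 CPM. The groups overlapped in each comparison, and log2 fold changes were 0.57 (SE 0.27, adjusted p = 0.517) for restraint, 0.06 (adjusted p = 0.931) for PSD and 0.41 (adjusted p = 0.428) for the combination. The response of females minus that of males was -0.56 (SE 0.34, adjusted p = 0.575) for PSD and -0.19 (SE 0.35, adjusted p = 0.943) for PSD + restraint, so a difference between the sexes was not detectable. With all mice in 1 model, Irf7 stood at 0.57 (adjusted p = 0.125) for restraint, 0.33 (adjusted p = 0.32) for PSD and 0.50 (adjusted p = 0.0653) for the combination, none of them called.

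**Figure D4:**
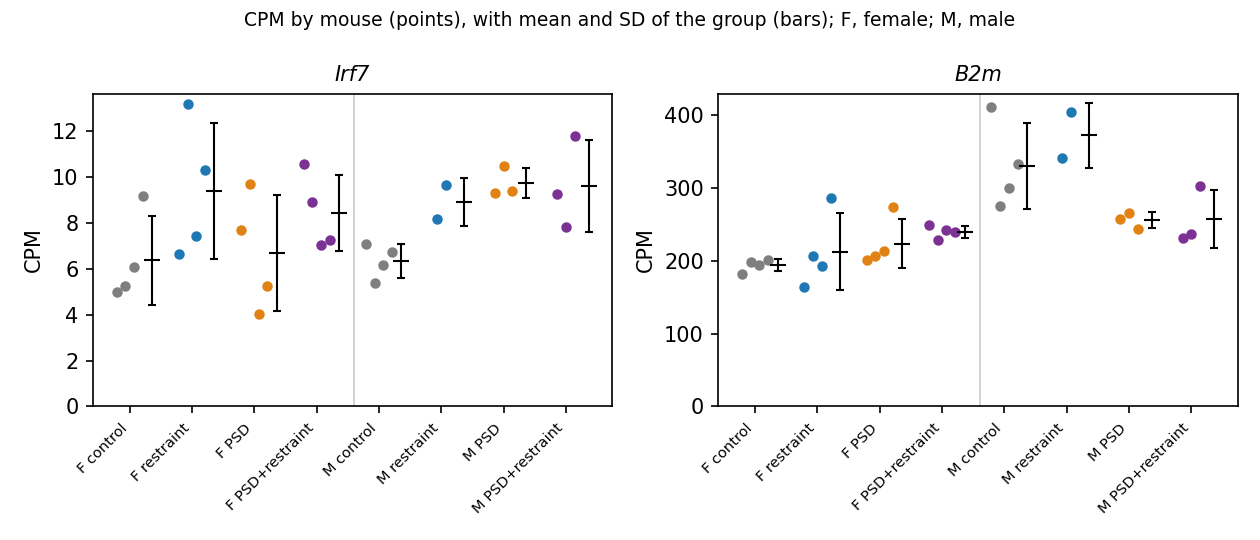
CPM of Irf7 and B2m in every mouse by group, with group mean and SD beside the points. For Irf7 the treated males lie between 7.82 and 11.8 CPM, above the control males. For B2m the males after PSD lie between 244 and 266 CPM, below the control males, and the females after PSD lie between 201 and 274 CPM.

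Beyond Irf7, the restraint males gave small values for most members. No member was called (0.296% of all genes), Irf7 alone had an unadjusted p under 0.05 (5.07% of all genes), and 2 members had groups without overlap (13.2% of all genes), Irf7 higher and the ubiquitin ligase gene Dtx3l lower, with only 2 restraint males. The median was 0.02, with 20 positive, and the largest fold change in size was that of Cxcl10 (-0.70, SE 0.67).

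PSD in males gave the widest set of members with small unadjusted p, but no call. The median log2 fold change was 0.09, against 0.00 over all genes, and 25 of 34 were positive. No member was called (0.00547% of all genes), 6 had an unadjusted p under 0.05 (8.85% of all genes), and 4 had groups without overlap (10.4% of all genes). The members' share with an unadjusted p under 0.05 was above that of all genes. Beside Irf7, Usp18, the protease that removes ISG15 and damps the interferon receptor, had 6.96, 5.95, 5.33 and 5.64 CPM in controls and 8.29, 8.91 and 7.03 CPM after PSD (log2 fold change 0.44, SE 0.13, adjusted p = 0.342). Psmb9, another immunoproteasome subunit, had 10.1 to 10.8 CPM in controls and 12.4 to 13.3 CPM after PSD (0.30, adjusted p = 0.535). Neither gene's groups overlapped. Without PSD mouse 1, Irf7, Usp18 and Psmb9 stood at 0.65, 0.42 and 0.27 on the log2 scale. Psmb9 shares exon sequence with Tap1 on the other strand, and Tap1 lay at 15.4 to 18.1 CPM in controls and 16.6 to 17.1 CPM after PSD.

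Antiviral effectors and Cxcl10 were uneven among the PSD males, and none passed the test. Mx1 had 0.828, 0.501, 0.675 and 0.552 CPM in controls and 1.36, 1.19 and 0.615 CPM after PSD (0.72, SE 0.31, adjusted p = 0.533). Ifit3, whose reads may be shared with its close copy Ifit3b, was at 0.38 on the log2 scale (adjusted p = 0.533). Cxcl10 had 5.98, 3.1 and 1.33 CPM after PSD against 0.529 to 3.59 CPM in controls (1.12, SE 0.53, adjusted p = 0.576). In each of these, PSD mouse 3 had the lowest value of its group.

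B2m went the other way in PSD males. It had 411, 275, 300 and 333 CPM in controls and 258, 266 and 244 CPM after PSD, all below the controls (log2 fold change -0.36, SE 0.13, adjusted p = 0.466). Control mouse 1, the mouse with little neurointermediate lobe transcript, was the highest. Without it the fold change was -0.23 (adjusted p = 0.48), and that after PSD + restraint was also -0.23 (adjusted p = 0.286). Females minus males differed by 0.58 (SE 0.20, adjusted p = 0.355) in the response to PSD and by 0.66 (SE 0.20, adjusted p = 0.573) in that to PSD + restraint, neither called. Beside B2m in males, macrophage markers summed to 189 to 216 CPM in controls and 178 to 179 CPM after PSD. Red blood cell markers, of which 4 were in the table, summed to 1780 to 3220 CPM in controls and 466 to 1740 CPM after PSD. Neurointermediate lobe markers summed to 396 to 1760 CPM in controls and 1760 to 2470 CPM after PSD, with 4 of 7 positive and none called. The part of these lists in the B2m values was not tested.

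PSD + restraint in males called Irf7 alone, 1 of 34 where 2.56% of all genes were called. The median was -0.03, with 13 positive and 21 negative. An unadjusted p under 0.05 was found for 4 members (17.4% of all genes), and 2 had groups without overlap (15.1% of all genes). Mx2 had 4.16, 3.48, 3.76 and 3.94 CPM in controls and 2.93, 2.61 and 2.73 CPM after PSD + restraint, all below the controls (log2 fold change -0.47, SE 0.14, adjusted p = 0.0961). Rsad2, which encodes viperin, had 9.15, 7.68, 8.84 and 7.06 CPM in controls and 5.34, 7.64 and 3.66 CPM after both treatments (-0.53, SE 0.21, adjusted p = 0.2). Its value was -0.83 (adjusted p = 0.0832) without mouse 2 and -0.34 (adjusted p = 0.336) without mouse 3 of the treated group. B2m had 231, 237 and 303 CPM (-0.36, SE 0.13, adjusted p = 0.174), and without mouse 3 it stood at -0.49 (adjusted p = 0.0666). Neurointermediate lobe markers summed to 396 to 1760 CPM in male controls and 1810 to 3340 CPM in these males. Endothelial markers summed to 236 to 291 CPM and 205 to 251 CPM, with 9 of 10 negative and none called. Lymphocyte markers, at 10.9 to 15.6 CPM and 10.6 to 17.3 CPM, overlapped. Their part in the members' values was not tested. In other lists, the RNA sensor Tlr3 was lower (-0.38, adjusted p = 0.0493).

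With all mice in 1 model and sex as a term, no member was called for any treatment. DESeq2 called Irf7 for PSD + restraint against control and 0 members for the other treatment comparisons. Against control, 1.14% of all genes were called in the restraint comparison, 0.671% with PSD and 5.46% with both. The share was 0.0951% for PSD + restraint against restraint and 0% for the interaction. Members with an unadjusted p under 0.05 numbered 3 for restraint (10.3% of all genes), 2 for PSD (17.6%), 3 for PSD + restraint (25.5%), none for PSD + restraint against restraint (13.5%) and 2 for the interaction (3.92%). After restraint these were Irf7, Psmb8 and Bst2, and after PSD they were Usp18 (0.30, adjusted p = 0.213) and Ifih1 (-0.21, adjusted p = 0.215). Stat2 after PSD + restraint had an adjusted p of 0.0496 but a fold change of -0.13 (SE 0.04), under the size limit. Parp14, a mono-ADP-ribosyltransferase, had 0.19 (adjusted p = 0.0898).

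Among restrained mice, PSD beforehand gave mostly small negative member values, none of them called. For PSD + restraint against restraint, the median log2 fold change was -0.08 (-0.0005 over all genes) and 27 of 34 were negative. Restraint against control had a median of 0.10 (0.0006 over all genes) with 24 of 34 positive, and these comparisons share the restraint mice. Many members were high or low together in a mouse, so counts of signs over members are not independent values. The members' mean log2 CPM had a within-group SD of 0.19 between mice. The interaction had a median of -0.15 (-0.007 over all genes), with 28 of 34 negative, and it subtracts the restraint comparison. Its lowest p among the members was for Bst2 (-0.41, SE 0.17, unadjusted p = 0.0215) and Psmb8 (-0.28, SE 0.13, unadjusted p = 0.0366), and no gene of the table was called for it.

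Most called differences within the list were between the sexes. In the model of all mice, 7 of the 34 genes were called, 6 lower and 1 higher in females, where 14.9% of all genes were called. An unadjusted p under 0.05 was found for 16 members, against 43.1% of all genes, so neither share lay far from that of all genes. DESeq2 called the same genes but Rsad2. The median log2 difference of females from males was -0.09, against 0.01 over all genes.

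Mx2 had the lowest p. It had 1.64 to 3.24 CPM in 16 females, with a median of 2.23, and 2.61 to 4.31 CPM in 12 males, with a median of 3.45 (log2 difference -0.61, SE 0.09, adjusted p = 8.97e-06). The uncalled Cxcl10 differed more in size (0.71, adjusted p = 0.192). Dhx58, which encodes the RNA sensor LGP2, had 3.53 to 6.24 CPM in females (median 4.54) and 5.51 to 7.78 CPM in males (median 6.38), a difference of -0.46 (SE 0.07, adjusted p = 1.82e-05). B2m had 164 to 287 CPM in females (median 206) and 231 to 411 CPM in males (median 287), a difference of -0.47 (SE 0.09, adjusted p = 0.000265). The ranges of the sexes overlapped for each of these genes when all treatments were pooled.

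In the home cage controls alone they did not. Mx2 had 2.13 to 2.31 CPM in female and 3.48 to 4.16 CPM in male controls. Dhx58 had 3.71 to 5.64 CPM and 5.93 to 7.03 CPM, and B2m 182 to 201 CPM and 275 to 411 CPM. Psmb8 had 12.2 to 15.8 CPM and 16.0 to 20.2 CPM. In a fit of the 8 control mice, chosen after seeing the data, Mx2, B2m and Psmb8 were called, and Dhx58 had an adjusted p of 0.0521. In that fit 9.34% of all genes were called, and 5 of the 34 members had sexes without overlap where 18.9% of all genes did, so the members' shares are not above those of all genes. For Mx2 the sexes overlapped in the PSD + restraint groups alone, with 1.71 to 3.24 CPM in females and 2.61 to 2.93 CPM in males.

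Psmb8 (-0.34, SE 0.06, adjusted p = 0.000138) and Gbp3 (-0.38, SE 0.10, adjusted p = 0.0025), a guanylate-binding protein, were also lower in females. Without male PSD + restraint mouse 3, Psmb8 was at -0.31, under the size limit. Rsad2 was lower at -0.33 (SE 0.13, adjusted p = 0.0485), and this call was lost in 18 of 28 fits that left out 1 mouse. The 18 included that without male control mouse 1 (adjusted p = 0.0742), and the call was also lost without the 3 mice of the added fit (adjusted p = 0.143). Ifi44 alone was higher in females, with 2.79 to 8.18 CPM (median 4.23) against 2.14 to 3.51 CPM in males (median 3.21), a log2 difference of 0.48 (SE 0.12, adjusted p = 0.00308). Ddx58, Dtx3l, Psmb9 and Stat2 were lower in females at an adjusted p of at most 0.05 but under the size limit, with log2 differences between -0.26 and -0.13.

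**Figure D5:**
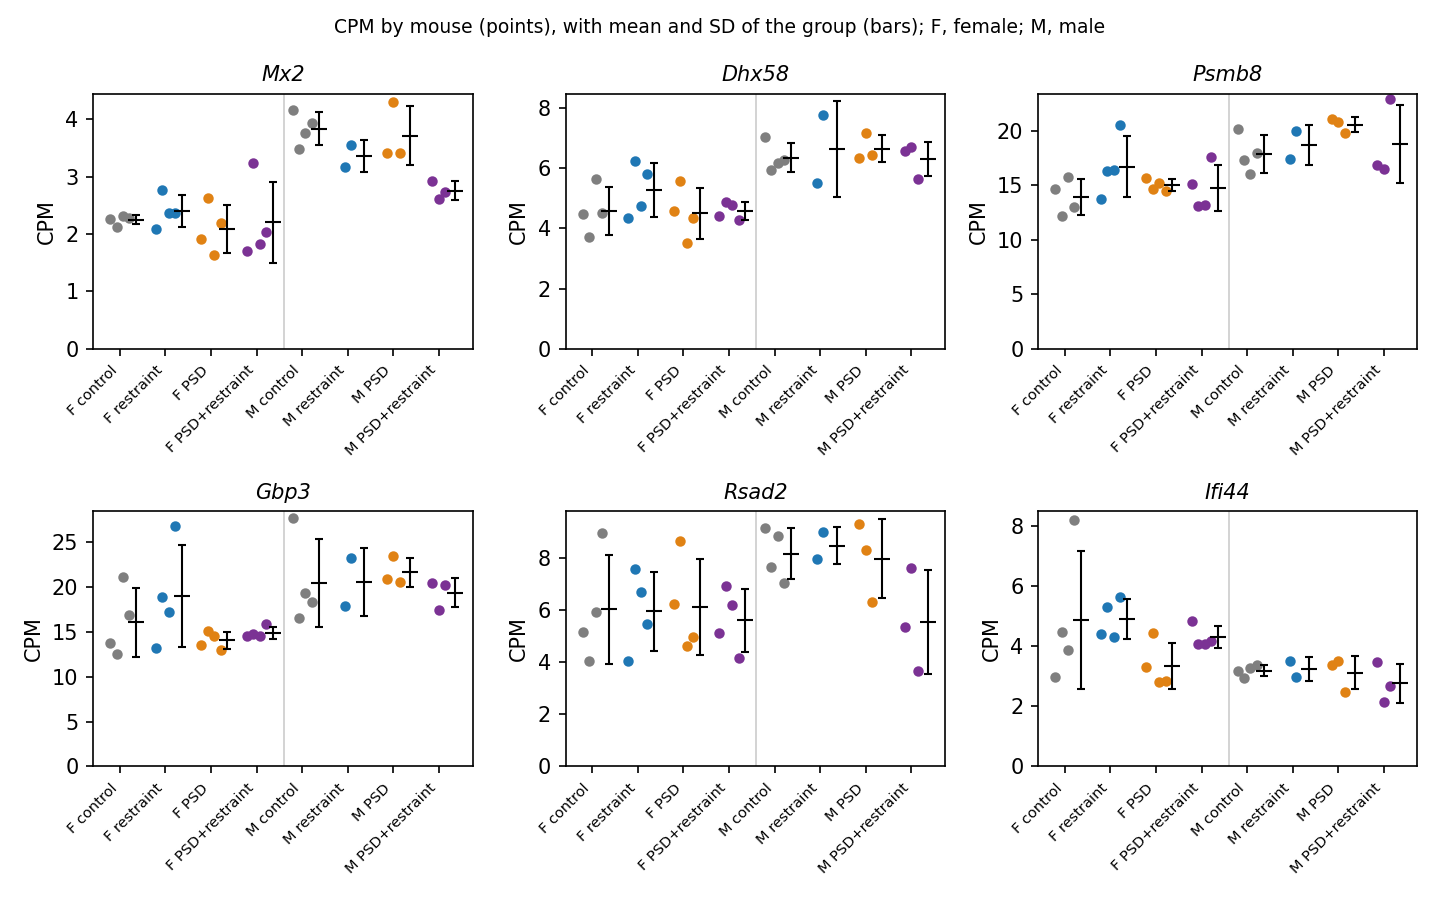
CPM of 6 genes called between the sexes, in every mouse by group, with group mean and SD beside the points. Mx2, Dhx58, Psmb8, Gbp3 and Rsad2 lie lower in females, and Ifi44 lies higher. Mx2 of males is lowest after PSD + restraint, at 2.61 to 2.93 CPM.

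By role, the called differences between the sexes fell on 1 of 3 sensors (Dhx58), 4 of 17 antiviral effectors (Mx2, Gbp3, Rsad2 and Ifi44) and 2 of 5 genes of antigen presentation and chemokine signals (B2m and Psmb8). These counts stand beside 14.9% of all genes called. None of the 3 signalling genes and none of the 6 genes of the ISG15 and ubiquitin ligase group was called. Isg15 itself had 1.92 to 5.19 CPM in females and 2.43 to 4.28 CPM in males, and Trim25, the most abundant of that group by CPM, had a difference of -0.08 (adjusted p = 0.0646). Of 19 genes for interferon receptors and signalling, Jak1 was lower (-0.33, adjusted p = 2.76e-09) and Socs1, a feedback inhibitor, higher in females (0.83, adjusted p = 0.00619). Of 17 nucleic acid sensing genes tested, the kinase gene Ikbke was lower (-0.39, adjusted p = 0.000201). In the second list 4 of 54 genes were higher and 5 lower, a share near that of all genes, among them Cxcl9 (1.67, adjusted p = 0.00138) and Gbp6 (-0.37, adjusted p = 0.00132).

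Immune cell markers differed between the sexes as well. Lymphocyte markers summed to between 8.36 and 12.2 CPM in females and between 10.6 and 18 CPM in males. Of 12 tested, 3 were called lower and 2 higher in females, and log2 differences over the list lay between -1.02 and 1.11. Those called lower included the B cell receptor genes Cd79a (log2 difference -0.54) and Cd79b (-0.81). The T cell gene Cd3e and the granzyme gene Gzmb were called higher. Granulocyte markers summed to between 0.798 and 11.5 CPM in females and between 1.46 and 100 CPM in males, with 5 of 6 called lower in females and Elane at 0 counts in 15 mice. Macrophage markers summed to between 168 and 242 CPM in females and between 178 and 216 CPM in males, with none of 15 called. Lists of other cells differed too. Of 7 pituitary hormone genes, 5 were called lower and 1 higher in females, with log2 differences between -2.4 and 2.04. Called higher were 2 of 7 neurointermediate lobe markers, 3 of 8 forebrain markers and 1 of 10 endothelial markers, with none of these lists called lower. Of 4 red blood cell markers, 1 was called lower. The part of these lists in the difference of the interferon-stimulated genes was not tested.

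No sex difference in the members' treatment responses was detectable at this depth and group size. No gene of the table was called for the sex difference of the restraint, PSD or PSD + restraint response (0% of all genes each time). Members with an unadjusted p under 0.05 numbered 0 for restraint (4.25% of all genes), 2 for PSD (10.8%) and 1 for PSD + restraint (7.2%). These were B2m and Oas2 for PSD and B2m for PSD + restraint. Oas2, which makes the second messenger that activates RNase L, had a difference of -0.74 (SE 0.32, adjusted p = 0.428).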

How the data were processed

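Pituitary RNA of 28 mice was sequenced. Per the labels and methods, the authors mapped reads to mm10 (MapSplice), assigned them to UCSC genes (HTSeq 0.9.1) and deposited raw counts per gene, used here without change. A deposited table of counts divided by size factors was not used.

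Counts were fitted in R 4.3.3 with edgeR 4.0.16 (TMM, filterByExpr, quasi-likelihood test, Benjamini-Hochberg adjustment over 18059 genes in females, 18271 in males and 18936 in all mice). Models held PSD, restraint and their interaction per sex, the same plus sex for all mice, and 1 mean per sex and treatment for sex differences of responses. TPM used mean transcript lengths of GENCODE M21, and log2 CPM a prior count of 2. Alternatives were DESeq2 1.42.0, its size factors, other filters on low counts, a replicate block, no fold limit, only the groups compared and each mouse left out. The fits were tested on simulated data. In each of 37 same-group pairs, mice differed beyond sampling noise, and p-values measure the spread between mice.

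The members and other lists were chosen with earlier results of these data known. Named are members called, with an unadjusted p under 0.05, or with the lowest p or highest level per role, and, of other lists, genes called or of lowest p. Further members were named after their values were seen. Some genes of the other lists are not reported here.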

Additional observations from a re-analysis of the deposited data

Results flagged for a closer look

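Some members had 1 mouse apart from the other mice of its group. Of 170 combinations of a member and a group of 4 mice, 9 held such a mouse by Dixon's test, all of them at the high end. For independent values, chance gives about 1 in 20, at either end. Members vary together in a mouse and all 9 lay at 1 end, so this rate cannot decide what chance gives here. Ifit1 was high in female control mouse 4 (10.6 CPM, next 5.84), in female PSD + restraint mouse 2 (11.6 CPM, next 6.73) and in male control mouse 1 (9.04 CPM, next 6.07). In female PSD + restraint mouse 2, Mx1 was high as well (1.78 CPM, next 0.596). Oasl1 was high in female PSD mouse 2 (2.18 CPM, next 1.14). Oas2 (3.8 CPM, next 2.3) and Ifi44 (4.84 CPM, next 4.17) were high in female PSD + restraint mouse 1. Irf9 was high in female PSD mouse 1 (32.6 CPM, next 29.8), the mouse with 244 CPM of forebrain markers. B2m was high in female PSD mouse 4 (274 CPM, next 213).

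B2m was not called after PSD in either sex (adjusted p = 0.377 in females and 0.466 in males). Every PSD female lay above every control female, by less than the printed digits (201 CPM for both nearest mice), and every PSD male lay below every control male. The female minus male log2 response was 0.576, with an adjusted p of 0.355 in the test of the difference, so it was not called.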

How the results depend on the processing

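Under other settings, 108 of 116 counts of members called stayed within 1.5 times the value reported, and all 116 medians of the members moved by less than the spread between mice. With DESeq2, 1 member (Irf7) was called after PSD in males and 1 (Irf7) after PSD + restraint in all mice. Without the fold change limit, 1 member (Stat2) was called after PSD + restraint in all mice and 11 between the sexes. With only the groups compared, 1 member (Irf7, adjusted p = 0.0302) was called after PSD + restraint in all mice and 0 in males. With control mice only, a setting chosen after seeing the data, 3 members were called between the sexes. Leaving out male control mouse 1, female PSD mouse 1 and male PSD + restraint mouse 2, also chosen after seeing the data, turned Irf7 after PSD in females to -0.0284 and changed no count by over 1.5 times.

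Equal replicate numbers did not mark paired mice (correlations of deviations between -0.347 and 0.333 over 39 pairs). A replicate block left 0 members called after PSD + restraint in males (Irf7, adjusted p = 0.111) and 6 between the sexes, and changed no other count.

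With 1 mouse left out, the members called ranged from 0 to 1 after PSD + restraint in males. They ranged from 0 to 1 after restraint in all mice, where Irf7 was called without female control mouse 4 (adjusted p = 0.0383). They ranged from 0 to 1 after PSD + restraint in all mice, where Irf7 was called without female control mouse 4, female restraint mouse 2 or female PSD mouse 3, and Mx2 without female PSD + restraint mouse 2. Fold changes that changed sign ranged from -0.171 to 0.293 (Irf7 after PSD in females), from -0.321 to 0.0419 (Irf7, sex difference of the PSD + restraint response) and from -0.0405 to 0.243 (B2m after restraint in females). The cause of these changes was not tested. Groups of 2 to 4 mice, and low counts for Oas3 and Mx1 (as few as 7 per mouse), limit the precision.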
